A study of Penicillium oxalicum with 9 samples.

Results

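Among the 9721 genes of *Penicillium oxalicum* listed in these libraries, 142 had an FPKM of 500 or more in every library and a mean in each of 2 deletion mutants within 0.7 of the parental mean on the log2(FPKM + 1) scale. FPKM is relative to the length of a transcript and to all fragments mapped in its library. The parental strain was Δ*ku70*, in which a gene for non-homologous end joining, *ku70*, is deleted, and the mutants Δ*rsrA* (POX01907 deleted) and Δ*rsrB* (POX08340 deleted) were made in it, so all strains share that deletion. There were 3 libraries of each strain, described in the paper as biological replicates. Whether they came from separate transformants is not given in the sources used here, so p-values measure the spread between these samples. Mycelia were grown for 24 h with glucose and then for 24 h in inducing medium, for which the paper names commercial starch of corn and the labels give both raw starch and Avicel (microcrystalline cellulose). The genes were chosen by the FPKM values of all 9 libraries, so their abundance and their small differences from Δ*ku70* are described here and carry no test of their own.

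In a growing fungus a small part of the genes supplies a large part of the mRNA. Ribosomal proteins, translation factors, histones, enzymes of central metabolism and secreted proteins are commonly among the most abundant transcripts. RsrA, with SANT-like domains, and RsrB, with a Zn2Cys6 zinc finger, are transcription factors that act in the production of starch-degrading enzymes. Genes with high and steady levels are of use as references, because FPKM is a relative measure and a library in which some genes take more leaves less for the others. The lists give older identifiers that are not paired with gene names, and 0 of them occur in the RefSeq table of strain HP7-1, so no sequence or position is given for the 142 genes, and a name only for POX06702. The paper's primers for a strain that expresses another gene from the *tef1* promoter carry that identifier, and by this inference it is *tef1*, which in fungi encodes translation elongation factor 1-alpha. In bulk mycelium, fewer hyphae with a transcript and less transcript per hypha cannot be told apart.

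The deleted genes matched the labels. POX01907 was at 22.9, 17.1 and 16.5 FPKM in the parental libraries and at most at 0.04 in Δ*rsrA*, and POX08340 was at 30.6, 35.7 and 30.6 in the parental libraries and listed at 0 in the 3 Δ*rsrB* libraries. In Δ*rsrA* POX08340 was at 8.26, 8.01 and 7.28, and in Δ*rsrB* POX01907 was at 24.2, 20.4 and 19.9. The paper uses another identifier for *rsrB* and does not print POX08340. The FPKM totals ran from 950456, in Δ*ku70* replicate 1, to 1086112, in Δ*rsrB* replicate 3. The files hold no read numbers. Relative depth was taken from weakly expressed genes above 0 in a library and in Δ*ku70* replicate 2, the reference. The most common ratio of their values, over 119 to 170 genes, gave 0.984 to 1. Δ*ku70* replicate 1 stood apart from the other parental libraries, with a 2-fold or larger difference from the mean of replicates 2 and 3 on the log2 scale in 15.6% of the 8589 genes whose mean FPKM was 1 or more.

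Of all genes, 209 had an FPKM of 500 or more in each library, and 67 of them lay outside the limit of 0.7. Of these, 43 were outside by Δ*rsrA* alone, 13 by Δ*rsrB* alone and 11 by both. In Δ*rsrA* 37 were above the limit and 17 below it, and in Δ*rsrB* 16 were above and 8 below. The limits cut through a continuous range. The member nearest to the FPKM limit was POX07970, with a lowest value of 501, and the nearest gene beyond it was POX04448, with 491. In Δ*rsrA* the difference from Δ*ku70* was 0.69 for POX05422 inside the limit and -0.70 for POX06904 outside it. In Δ*rsrB* it was 0.66 for POX07813 inside the limit and 0.73 for POX01081 outside it.

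The 142 genes held a similar part of each library. Their share of the FPKM total was 23.4%, 25.8% and 25.1% in Δ*ku70* replicates 1 to 3. It was 27.0%, 25.7% and 24.7% in Δ*rsrA* and 26.4%, 26.5% and 26.5% in Δ*rsrB*. The ranges of Δ*ku70* and Δ*rsrA* overlapped, and the 3 Δ*rsrB* values lay above the 3 of Δ*ku70*. The lowest share was in Δ*ku70* replicate 1, where the 67 other abundant genes also had their lowest share, 13.7%, against 15.2% to 16.7% in the other libraries.

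**Figure D1:**
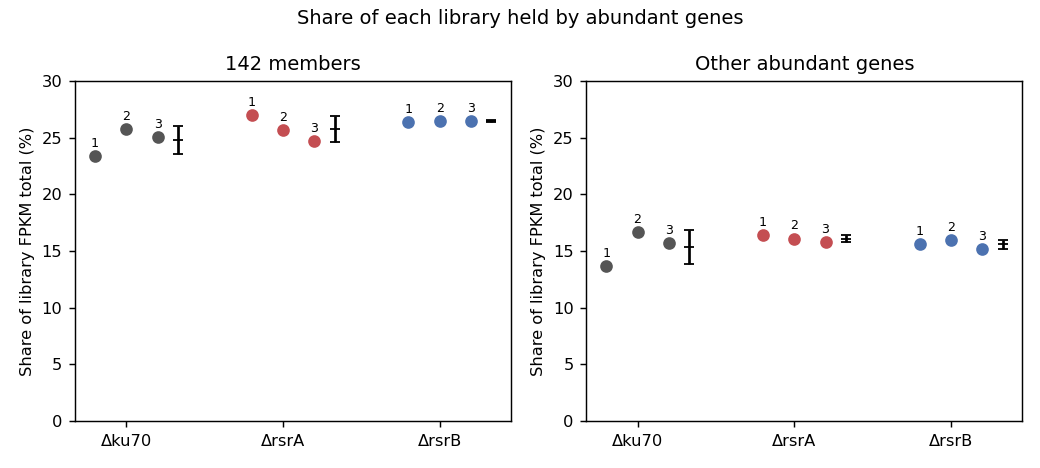
Share of the FPKM total (%) held by the 142 members (left) and by the 67 other genes with an FPKM of 500 or more in every library (right). Points are libraries with their replicate numbers, and bars are the mean and SD of 3 libraries. The members lie between 23.4% and 27.0%, with Δ*ku70* replicate 1 lowest in both panels.

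Between 41 and 47 of the members were among the 100 highest genes of a library, and the lowest-ranked member stood between rank 315 and rank 383. By their mean over 9 libraries, 49 members had an FPKM under 1000, 64 between 1000 and 2000, 19 between 2000 and 5000 and 10 above 5000. The 10 highest together took 7.47% to 10.0% of the total. POX05554 was the highest member in all libraries, with 1.71% to 2.61% of the total. Its FPKM was 17835, 25066 and 19606 in Δ*ku70*, 19954, 18582 and 17068 in Δ*rsrA*, and 27157, 25648 and 22980 in Δ*rsrB*. The Δ*rsrA* and Δ*rsrB* values did not overlap, whereas both overlapped Δ*ku70*.

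POX06307 was second, with an FPKM of 7153, 14621 and 13110 in Δ*ku70*. It had 11553, 9630 and 9455 in Δ*rsrA* and 11248, 11432 and 10606 in Δ*rsrB*. All mutant values thus lay between Δ*ku70* replicate 1 and the other parental replicates. POX07862 had 8039, 7690 and 7569 in Δ*ku70* and 7697, 8131 and 7160 in Δ*rsrB*, which overlapped, and 13571, 11675 and 11595 in Δ*rsrA*, which lay above both. POX06820 had 5038, 5448 and 6009 in Δ*ku70* against 9087, 8367 and 7650 in Δ*rsrA* and 8027, 8982 and 8332 in Δ*rsrB*, so that both mutants lay above the parental strain.

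POX06702, the gene linked to the *tef1* promoter and named after its values had been seen, had 4671, 7768 and 6126 in Δ*ku70*, 7547, 6742 and 6416 in Δ*rsrA*, and 7102, 6490 and 6444 in Δ*rsrB*. As deposited, the 3 strains overlapped, and the lowest and the highest value were both parental. Its difference from Δ*ku70* was 0.18 in Δ*rsrA* (adjusted p = 0.527, limma) and 0.14 in Δ*rsrB* (adjusted p = 0.715, limma). Rescaling by a median of ratios, described below, gave 0.52 (adjusted p = 0.108, limma) and 0.11 (adjusted p = 0.764, limma). Between the mutants, Δ*rsrA* minus Δ*rsrB* was 0.05 as deposited (adjusted p = 0.706, limma). It was 0.41 after that rescaling (adjusted p = 0.0125, limma), so the steadiness of POX06702 depended on the scale.

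Although each gene was held within 0.7, most members were somewhat higher in the mutants. On the log2(FPKM + 1) scale, the median difference of the 142 genes from Δ*ku70* was 0.34 in Δ*rsrA*, with quartiles of -0.00 and 0.50, and 106 members were above 0 and 36 below. Over all 8550 genes tested in that comparison the median was -0.29, 34.0% were above 0 and 66.0% were below. In Δ*rsrB* the median of the members was 0.26, with quartiles of 0.14 and 0.37, and 118 members were above 0 and 24 below. Over all 8597 genes tested there the median was 0.04, 53.8% were above 0 and 46.2% were below. The comparisons share their parental libraries. The other 67 abundant genes had a median of 0.75 in Δ*rsrA* and 0.27 in Δ*rsrB*.

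In Δ*rsrA* 69 of the members lay between 0.35 and 0.7 and 13 lay between -0.7 and -0.35. In Δ*rsrB* the corresponding numbers were 41 and 5. The difference also varied with abundance. In Δ*rsrA* the median was 0.34 for members with a mean FPKM under 1000, 0.39 between 1000 and 2000, 0.19 between 2000 and 5000 and -0.14 above 5000. In Δ*rsrB* these medians were 0.29, 0.26, 0.27 and 0.19.

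Whether these genes count as stable depended on the scale. When a scaling by median of ratios was applied to the libraries, which brought the median of all tested genes to 0.02 in Δ*rsrA*, the median of the members was 0.67, and 67 of the 142 were at or above 0.7 while none was at or below -0.7. In Δ*rsrB* that scaling left the members at 0.23, with 0 of them at or past the limit. After quantile normalization, which gives all libraries the same set of values, the medians were 0.09 in Δ*rsrA* and 0.12 in Δ*rsrB*. Relative to all tested genes, the members stood 0.63 higher in Δ*rsrA* as deposited, 0.66 after scaling by the median of ratios and 0.08 after quantile normalization. In Δ*rsrB* these values were 0.22, 0.22 and 0.10.

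**Figure D2:**
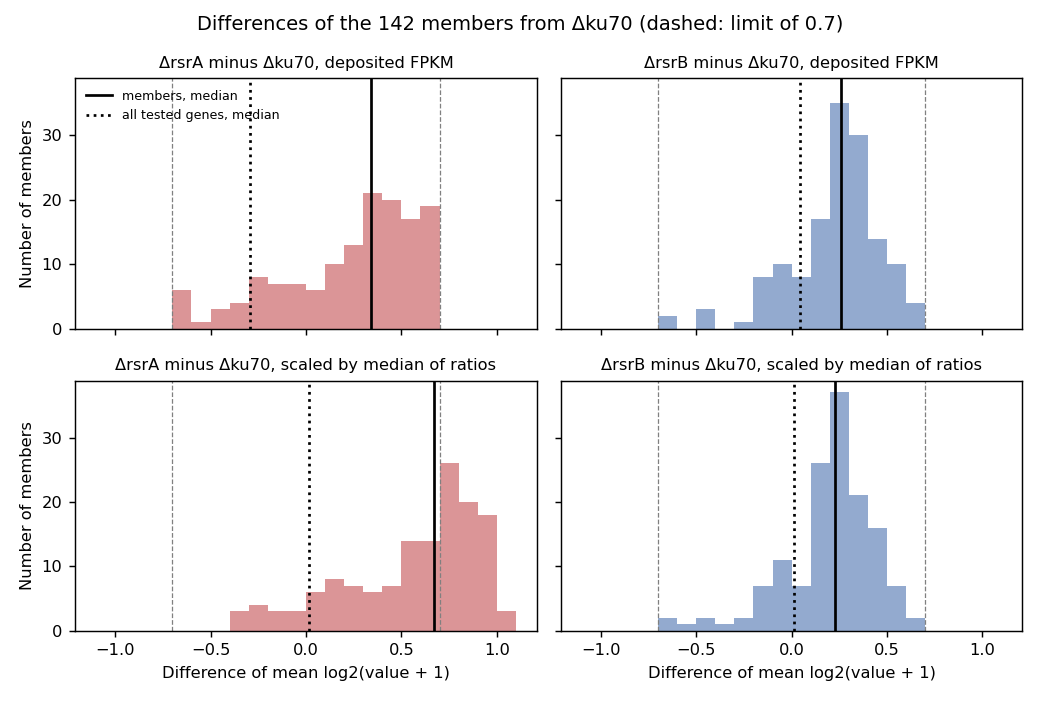
Number of members by their difference of mean log2(value + 1) from Δ*ku70*, for Δ*rsrA* (left) and Δ*rsrB* (right), on the deposited FPKM (top) and after scaling by the median of ratios (bottom). Solid and dotted lines are medians of the members and of all tested genes, and dashed lines mark 0.7 in either direction. The median in Δ*rsrA* lies at 0.34 in the top panel and at 0.67 in the bottom panel.

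Library by library, the members deviated from their own mean over 9 libraries by a median of -0.20, -0.18 and -0.14 in Δ*ku70* replicates 1 to 3. The medians were 0.24, 0.15 and -0.01 in Δ*rsrA* and -0.02, 0.07 and 0.17 in Δ*rsrB*, all above those of Δ*ku70*. In contrast, the median over the 8589 tested genes was lowest in the 3 Δ*rsrA* libraries, at -0.23, -0.20 and -0.23. The lowest of a member's 9 values was in a Δ*ku70* library for 107 members, in Δ*rsrA* for 26 and in Δ*rsrB* for 9. The highest was in Δ*rsrA* replicate 1 for 65 members and in Δ*rsrB* replicate 3 for 30. These counts were made for the members only, so they do not set the members apart from other genes.

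**Figure D3:**
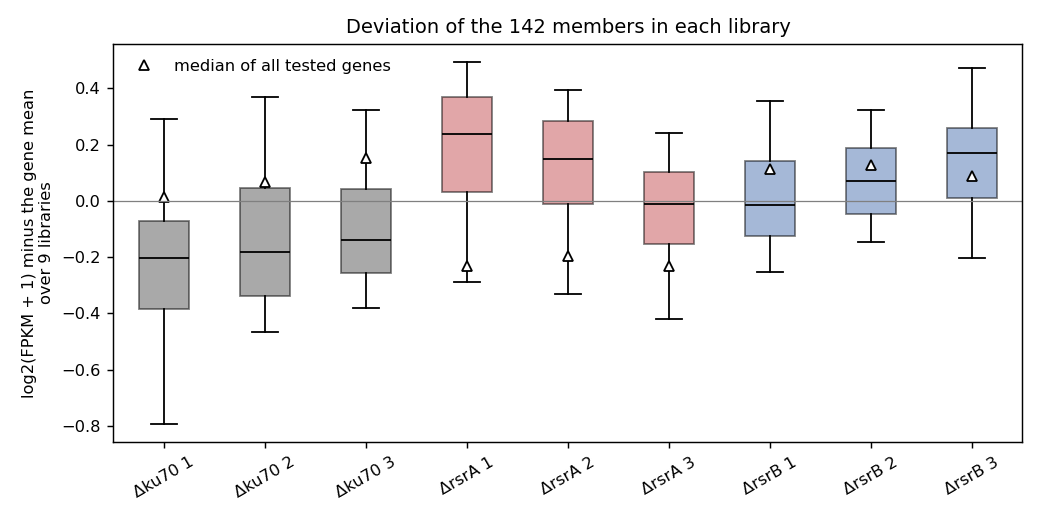
Deviation of log2(FPKM + 1) of the 142 members from each gene's mean over 9 libraries, by library. Boxes span the quartiles of the members with the median as a line, whiskers run from the 5th to the 95th percentile, and triangles are medians of all tested genes. The member medians run from -0.20 in Δ*ku70* replicate 1 to 0.24 in Δ*rsrA* replicate 1, where the median of all tested genes is -0.23.

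The members also differed in the same direction between replicates of a strain. The rule used each library for its FPKM limit, but not the order of the replicates. Of the 3 Δ*rsrA* libraries, replicate 1 held the highest value for 124 of 142 members (87.3%), against 44.1% of all tested genes and 70.1% of the other abundant genes. Replicate 3 held the lowest value for 120 members (84.5%), against 46.4% of all tested genes and 64.2% of the other abundant genes. In Δ*rsrB*, replicate 3 held the highest value for 79 members (55.6%), against 32.9% of all tested genes and 26.9% of the other abundant genes. Replicate 1 of Δ*rsrB* held the lowest value for 89 members (62.7%), against 37.0% and 46.3%. The FPKM totals moved alongside, from 998483 in Δ*rsrA* replicate 3 to 1058215 in replicate 1 and from 1039073 in Δ*rsrB* replicate 1 to 1086112 in replicate 3. Rescaled to a common total, the member medians lay closer together, at 0.21, 0.14 and 0.04 in Δ*rsrA* and -0.02, 0.02 and 0.10 in Δ*rsrB*. With the median of ratios they were 0.48, 0.35 and 0.23 in Δ*rsrA* and -0.15, -0.07 and 0.06 in Δ*rsrB*. The part of the totals in these shifts was not tested.

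A shift common to all members of a library accounted for 20.5% of the sum of squared deviations of log2(FPKM + 1). The strain means of each gene, which include the strain part of that shift, accounted for 55.6%, and differences between replicates of a strain for 44.4%. Of the part between replicates, 62.8% was in Δ*ku70*. Across the 142 genes, which share their libraries and are not independent, Pearson's r of log2(FPKM + 1) was 0.968 to 0.993 between Δ*rsrA* replicates and 0.954 to 0.985 between Δ*rsrB* replicates. It was 0.974 between Δ*ku70* replicates 2 and 3, and 0.872 and 0.891 between Δ*ku70* replicate 1 and these. The 21 coefficients between strains that leave out Δ*ku70* replicate 1 were 0.900 to 0.967.

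The spread between replicates of a member was small. The median SD of log2(FPKM + 1) over 3 replicates was 0.16 in Δ*ku70*, 0.15 in Δ*rsrA* and 0.13 in Δ*rsrB*, and the median coefficient of variation of the FPKM was 11.5%, 10.2% and 8.90%. For the 67 other abundant genes the median SDs were 0.33, 0.14 and 0.15, and for all tested genes 0.30, 0.14 and 0.17. The members were thus below both in Δ*ku70*, close to both in Δ*rsrA* and somewhat below both in Δ*rsrB*. The rule bears on these SDs, since a gene with 1 library under 500 could not be a member. An SD over 0.5 occurred in 15 members in Δ*ku70*, in 3 in Δ*rsrA* and in 2 in Δ*rsrB*.

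**Figure D4:**
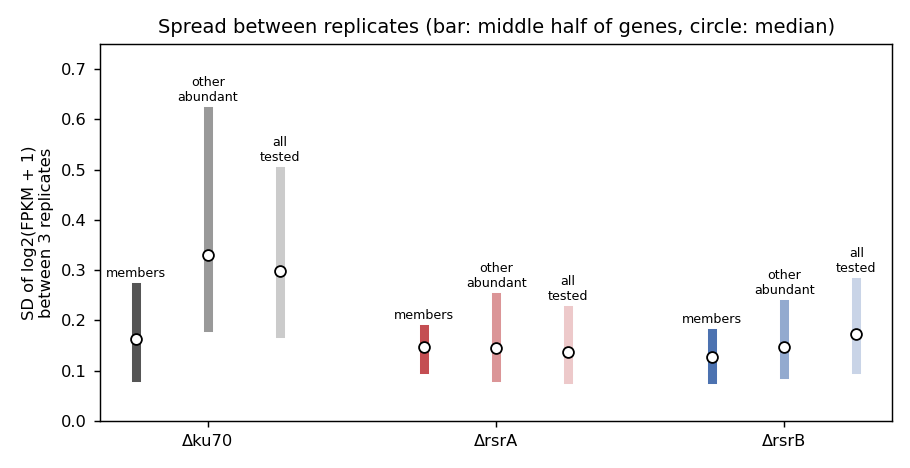
SD of log2(FPKM + 1) between the 3 replicates of each strain for the 142 members, the 67 other abundant genes and all tested genes. Bars span the quartiles of the genes and circles are medians. The members have a median of 0.16 in Δ*ku70*, where the other sets have 0.33 and 0.30. In Δ*rsrB* they have 0.13, where the other sets have 0.15 and 0.17, and in Δ*rsrA* the sets differ little.

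The ratio of the highest to the lowest of the 9 values had a median of 1.69 and ran from 1.19 to 8.22. It was under 1.5 for 29 members, under 2 for 110 and 3 or more for 6. Among the 67 other abundant genes it was under 2 for 4. That contrast is largely set by the rule, since the 67 are the abundant genes with larger differences from Δ*ku70*. It is therefore no separate evidence that the members are steady. Without Δ*ku70* replicate 1 the ratio was under 1.5 for 44 members and under 2 for 126. POX06644 varied least. Its FPKM was 1466, 1484 and 1362 in Δ*ku70*, 1419, 1292 and 1283 in Δ*rsrA*, and 1428, 1345 and 1242 in Δ*rsrB*, and the 3 strains overlapped. POX05882, with values from 1045 to 1281, and POX04161, with values from 658 to 836, followed at ratios of 1.23 and 1.27. As their choice by a small SD requires, their differences from Δ*ku70* were small, at -0.11, -0.05 and 0.08 in Δ*rsrA* and -0.10, -0.15 and -0.03 in Δ*rsrB*. In Δ*rsrA* they were 0.22, 0.28 and 0.41 with the median of ratios and -0.37, -0.32 and -0.17 after quantile normalization. With libraries scaled by the median of ratios, POX06644 was 0.36 higher in Δ*rsrA* than in Δ*rsrB* (adjusted p = 0.0193, limma), where the deposited values gave -0.01 (adjusted p = 0.957, limma).

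At the other end, POX01832 had an FPKM of 543 in Δ*ku70* replicate 1 and of 4447 and 4467 in replicates 2 and 3. It had 3439, 3235 and 2925 in Δ*rsrA* and 2900, 2508 and 2628 in Δ*rsrB*. It met the rule because of the low library, since its difference from Δ*ku70* turned from 0.53 to -0.48 in Δ*rsrA* and from 0.27 to -0.74 in Δ*rsrB* without Δ*ku70* replicate 1. POX04136 had 1988, 1521 and 3684 in Δ*ku70*, 1744, 3397 and 3415 in Δ*rsrA*, and 1572, 3811 and 5454 in Δ*rsrB*. Each strain thus had libraries under 2000 and libraries over 3000 for this gene. POX05512 had 1674, 3807 and 4540 in Δ*ku70*, 4246, 3966 and 3925 in Δ*rsrA* and 1826, 2147 and 2014 in Δ*rsrB*, where Δ*ku70* replicate 1 was below the Δ*rsrB* libraries and the other parental replicates were above them.

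**Figure D5:**
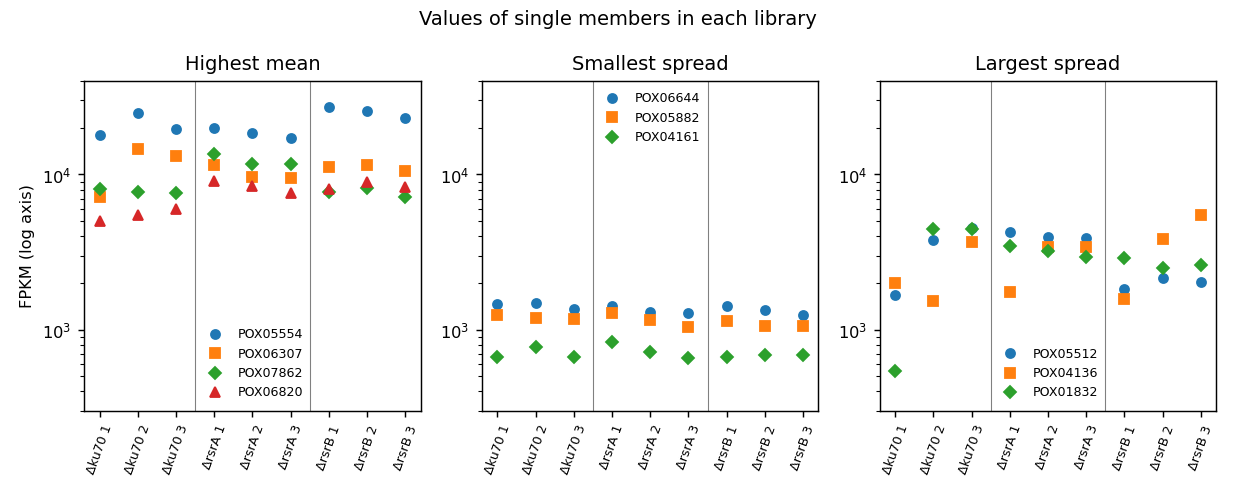
FPKM (log axis) of 10 members in each of the 9 libraries, for the 4 with the highest mean, the 3 with the smallest SD of log2(FPKM + 1) over 9 libraries and the 3 with the largest. POX06644 stays between 1242 and 1484, whereas POX01832 is at 543 in Δ*ku70* replicate 1 and at 2508 or more in all other libraries.

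Within the members, Δ*ku70* replicate 1 was below both other parental replicates for 70 genes and above both for 45. Over the 8589 tested genes it was below both for 3781 and above both for 3165. Its median difference from the mean of the others was -0.07 for the members and -0.055 for all tested genes. It was 2-fold or more lower for 7 members and 2-fold or more higher for 1. These 8 genes are 5.63% of the members, against the 15.6% of all tested genes and 22.4% of the other abundant genes. The rule bears on the share of the members, since it used this library for both of its limits. Without this library 169 genes met the rule, of which 132 were among the 142.

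The strains were also compared gene by gene across the whole list with limma, on log2(FPKM + 1) and with Benjamini-Hochberg adjustment. Because the rule used the same differences, the counts for the members are descriptions. In Δ*rsrA* against Δ*ku70*, 38.7% of all tested genes had an adjusted p under 0.05, with 9.74% higher and 29.0% lower. Among the members 31 passed, 26 of them higher and 5 lower. The split depended on the scaling. With the median of ratios, 85 members were higher and 0 lower, and 1526 of all genes were higher and 1251 lower, against 833 and 2477 as deposited. After quantile normalization 3 members were higher and 13 lower, and 1184 of all genes higher and 1088 lower. Leaving out Δ*ku70* replicate 1 raised the number of members to 67 and the share of all genes to 53.6%, and leaving out replicate 2 of that strain lowered them to 5 and 28.0%. They were 4, 0 and 12 members and 24.2%, 17.3% and 20.1% of all genes when Δ*rsrA* replicate 1, 2 or 3 was left out.

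In 70 members all Δ*rsrA* values lay above all Δ*ku70* values and in 12 they lay below, where 15.0% and 41.5% of all tested genes did so (56.5% in either direction). Without Δ*ku70* replicate 1 the former number was 80, and the share of all tested genes was 18.5%. POX07862 was higher in Δ*rsrA* by 0.66 (standard error 0.15, adjusted p = 0.0168, limma; 0.00362 to 0.0755 over the alternatives). POX06820 was higher by 0.61 (standard error 0.16, adjusted p = 0.0251, limma; 0.00582 to 0.110 over the alternatives). POX04408, chosen after its values were seen, had 8783, 10512 and 8572 in Δ*ku70* and 6410, 5652 and 5521 in Δ*rsrA*, which lay below. Its Δ*rsrB* values of 7165, 6619 and 5985 also lay below Δ*ku70*. Its difference in Δ*rsrA* was -0.66 (standard error 0.16, adjusted p = 0.0214, limma; 0.00600 to 0.180 over the alternatives). In Δ*rsrB* it was -0.49 (adjusted p = 0.150, limma).

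In Δ*rsrB* against Δ*ku70*, 3.95% of all tested genes had an adjusted p under 0.05 (limma), with 1.72% higher and 2.23% lower, and 0 of the 142 members did. At an unadjusted p under 0.05 there were 30 members, 27 higher and 3 lower, against 24.3% of all tested genes. The lowest adjusted p of a member was 0.0586 (limma), for POX05436. All Δ*rsrB* values lay above all Δ*ku70* values in 65 members and below them in 7, against 17.2% and 16.0% of all tested genes (33.1% in either direction). Without Δ*ku70* replicate 1, 9 members passed, 6 of them higher and 3 lower, which is 6.34% of the members against 10.9% of all genes.

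Between the mutants, the members did not move in one direction. The median of Δ*rsrA* minus Δ*rsrB* was 0.04 over the 142 genes, with 80 above 0 and 62 below, and -0.34 over all 8491 tested, with 29.1% above and 70.9% below. It was 0.41 and -0.01 with the median of ratios. In this comparison 60.3% of all tested genes had an adjusted p under 0.05 (limma), with 15.2% higher and 45.1% lower in Δ*rsrA*. Among the members 47 passed, 21 higher and 26 lower in Δ*rsrA*, with 84 higher and 6 lower under the median of ratios and 13 and 36 after quantile normalization. The split over all genes turned as well, from 1294 higher and 3829 lower to 2217 and 2010 with the median of ratios and to 1944 and 2067 after quantile normalization. Without replicate 2 of Δ*rsrA* 23 members and 48.7% of all genes passed, and without replicate 2 of Δ*rsrB* 25 members and 48.4%. All values of the strains lay apart in 57 members, with Δ*rsrA* higher in 28 and lower in 29, against 17.0% and 49.4% of all tested genes (66.4% in either direction). The rule did not limit this difference directly, and it ran from -1.21 to 1.02.

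POX05512 was higher in Δ*rsrA* than in Δ*rsrB* by 1.02 (standard error 0.10, adjusted p = 0.000127, limma; 3.4e-05 to 0.0305 over the alternatives). POX07970 had an FPKM of 515, 501 and 511 in Δ*rsrA* and of 1074, 985 and 970 in Δ*rsrB*, with 546, 783 and 684 in Δ*ku70* between them. Its difference of -0.99 (standard error 0.09, adjusted p = 9.7e-05, limma; 9.2e-05 to 0.00131 over the alternatives) joined opposite differences from Δ*ku70*, of -0.38 in Δ*rsrA* and 0.60 in Δ*rsrB*. Of the highest members, POX05554 differed between Δ*rsrA* and Δ*rsrB* by -0.45 (standard error 0.10, adjusted p = 0.00799, limma; 0.00694 to 1.0 over the alternatives). POX06820, in contrast, differed by -0.02 (adjusted p = 0.900, limma), and by 0.35 (adjusted p = 0.0239, limma) with the median of ratios.

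The identifiers of the members were spread over the list, with 6 pairs of consecutive numbers and 0 runs of 3 or more. Positions on the genome are not paired with these identifiers, so neighbours in number may not be neighbours on a chromosome. The genes of a pair had similar levels in some cases, as POX09666 and POX09667, with a mean FPKM of 2415 and 2485 over 9 libraries, and POX08198 and POX08199, with 1088 and 994. In others they differed, as POX02054 and POX02055, with 6695 and 1110. POX07863, the number after POX07862, had 5756, 6541 and 5929 in Δ*ku70* and 4466, 3665 and 3675 in Δ*rsrA*. Its difference in Δ*rsrA* was -0.63 (standard error 0.16, adjusted p = 0.0227, limma; 0.00795 to 0.199 over the alternatives), whereas POX07862 was higher. The Δ*rsrB* values of POX07863, 4968, 4519 and 3971, also lay below Δ*ku70*, with a difference of -0.44 (adjusted p = 0.166, limma).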

How the data were processed

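Poly(A) RNA of 9 libraries was sequenced at BGI and mapped by the authors to the genome of strain HP7-1. They deposited FPKM values to hundredths, one list per library. Tools named are RSEM, Bowtie2, BWA and NOISeq in the paper, and HISAT2 and bcl2fastq in the submitters' processing notes. Filters and strandedness are not given in the sources used here. FPKM values are not counts, so no count test was used.

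The members, lists and tests were chosen with earlier results of these data known. Values were transformed to log2(FPKM + 1). Strains were compared in pairs with limma 3.58.1 (R 4.3.3), using moderated statistics with a mean-variance trend. Genes entered where their FPKM averaged 1 or more over the 6 libraries of a pair. Benjamini-Hochberg adjustment ran over all tested genes. The fit was tested on simulated data. Summaries were computed with pandas 2.3.3.

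The genes named are the deleted genes, the 4 members with the highest mean, the 3 with the smallest and the 3 with the largest SD over 9 libraries, those just inside and outside each limit, members called in both mutants (0 genes) and runs of 3 or more identifiers. POX04408, POX07863, POX05436, POX06702 and the pairs of consecutive identifiers were named after their values had been seen.

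Alternatives tried were no filter or a mean FPKM of at least 5, 1 fit over all libraries, rescaling to a common total (TPM), quantile normalization, the median of ratios, a block for the replicate number, a pseudocount of 0.1, other limits of the rule, and leaving out each library. Libraries of the mutants with the same number deviated together (r = 0.581, 0.101 and 0.470 across genes, all over 0.1), so these strains were taken as paired by the data. The main fits between the mutants did not use this pairing, which entered only as the block among the alternatives. Neither mutant met that limit with Δ*ku70* in all 3 numbers. The ratios of highest to lowest value and the counts of groups that do not overlap, without Δ*ku70* replicate 1, were added after the data had been seen.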

Additional observations from a re-analysis of the deposited data

How the results depend on the processing

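The number of genes that meet the rule (142) was 139 with TPM and 160 after quantile normalization. With the median of ratios it was 82, of which 70 were among the 142. An FPKM limit of 250 gave 248 genes and one of 1000 gave 53, and a limit of 0.5 on both differences gave 89. Leaving out single libraries gave 130 to 169. The share of the FPKM total, 25.7% on average, was 25.6% after quantile normalization and 25.5% to 26.0% without single libraries. Scaling a whole library leaves it as it is, and it was not computed for other limits of the rule. The median difference in Δ*rsrA* moved to 0.67 with the median of ratios and to 0.0914 after quantile normalization, and that in Δ*rsrB* to 0.12 after quantile normalization. Without single libraries these medians were 0.27 to 0.38 and 0.21 to 0.30.

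In Δ*rsrA* the number of members called (31, or 21.8%, against 38.7% of all tested genes) was 85 with the median of ratios (59.9% against 32.4%). It was 16 after quantile normalization (11.3% against 26.5%) and 62 with 1 fit over all libraries (43.7% against 46.8%). Without single libraries it was 0 to 67, where 17.3% to 53.6% of all tested genes were called. In Δ*rsrB* (0 members, against 3.95% of all tested genes) it was 1 with TPM (0.704% against 3.87%) and 1 after quantile normalization (0.704% against 3.84%). It was 10 with 1 fit over all libraries (7.04% against 13.1%). Without single libraries it was 0 to 9, where 0.837% to 10.9% of all tested genes were called. Between the mutants (47 members, or 33.1%, against 60.3% of all tested genes) it was 90 with the median of ratios (63.4% against 49.7%). It was 22 with 1 fit over all libraries (15.5% against 46.6%). Without single libraries it was 23 to 51, where 48.4% to 61.5% of all tested genes were called. Over all genes, the calls in Δ*rsrA* (3310) ran from 1485 to 4553 without single libraries, where leaving out Δ*rsrA* replicates 1, 2 and 3 gave 2079, 1485 and 1722. Those in Δ*rsrB* (340) were 1123 with 1 fit over all libraries and 72 to 930 without single libraries, and those between the mutants (5123) were 4096 to 5207. In Δ*rsrB* the number was 930 and 127 without Δ*ku70* replicates 1 and 2, and it was 106, 72 and 88 when Δ*rsrB* replicate 1, 2 or 3 was left out. Why the numbers moved was not tested.

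With the replicate number as a block, 0 members were called in Δ*rsrA*, 0 in Δ*rsrB* and 42 between the mutants, and over all genes 2226, 149 and 5861. Same-numbered libraries of Δ*ku70* and a mutant share only a number. The block changed the number of calls between the paired mutants by less than 1.5 times.

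For the genes named, 646 of 756 single alternative values kept their direction and side of the threshold, 23 gained a call and 50 lost one. The sign changed in 37, in 33 of them with no call under either setting and in 4 with a call under 1 of them. These 4 were 0.35 for POX06820 and 0.36 for POX06644 between the mutants with the median of ratios, and -0.48 in Δ*rsrA* and -0.74 in Δ*rsrB* for POX01832 without Δ*ku70* replicate 1. For POX01832 the values without single libraries ran up to 1.04 in Δ*rsrA* and 0.78 in Δ*rsrB*. Depth in reads is not in the files, so no counting error is given.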
